A study of Mus musculus with 19 samples.

Results

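The methionine cycle and transsulfuration enzymes of mouse liver were followed as 9 genes: Mat1a, Mat2a, Gnmt, Pemt, Ahcy, Bhmt, Bhmt2, Cbs and Cth. They were taken by gene symbol from a count table of 55421 genes, and each symbol matched 1 row. All 9 had enough counts to be tested in every comparison. The study asked how hepatocytes respond to a forced dimer of c-Jun and Fra2, 2 proteins of the AP-1 transcription factor family, and how liver tumours arise from it. PolyA+ RNA of whole liver from adult male C57BL/6 mice was sequenced in 19 libraries of 15 animals, with a kit that marks the strand.

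Mutant mice carried a c-Jun~Fra2 transgene that doxycycline kept off and that was switched on in every animal at weaning, 3 weeks of age, by removing the drug. Controls were littermates given the same treatment. The 2-month groups, collected 2 months after doxycycline removal, were 6 controls and 3 mutants. The 9-month groups, collected 9 months after removal, were 3 controls and 3 mutants, and each of those mutants gave tissue free of visible tumour and at least 1 visible tumour. Mutant 1 gave 2 tumours, whose counts were summed so that the tumour group held 3 animals. The labels call the non-tumour samples mostly hepatocyte and the tumours mostly transformed hepatocyte. No source used here names the promoter that drives the transgene. The samples of each time were sequenced in a run of their own, and an effect of time cannot be told apart from one of the run.

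Methionine is turned into S-adenosylmethionine, the methyl donor of the cell, by methionine adenosyltransferase, which the liver makes mainly from Mat1a and most other cells from Mat2a. Methyltransferases such as Gnmt and Pemt use the donor and leave S-adenosylhomocysteine, which Ahcy splits into adenosine and homocysteine. Homocysteine is either methylated back to methionine, in liver partly by Bhmt with betaine as donor, or passed through Cbs and Cth to cysteine, the transsulfuration route.

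Libraries held 14294611 to 22062341 counts, and levels below are CPM, counts as a share of the library on a common scale, adjusted with TMM factors that correct for differences in the makeup of the RNA. Fosl2, which encodes Fra2, was higher in mutants at 2 months (log2 change 5.98 ± 0.225, SE), in tumour-free tissue (5.97 ± 0.315) and in tumours (5.50 ± 0.363). Jun was higher at 2 months (5.18, adjusted p = 1.14e-07). Its 9-month differences, also upward, did not pass the test (2.08 ± 1.1, adjusted p = 0.204, in tumour-free tissue and 1.71 ± 1.03, 0.268, in tumours). Jun was higher in 9-month than in 2-month controls (3.11 ± 0.798, adjusted p = 0.0431). The transgene carries sequence of both genes, and whether their counts include its reads cannot be told from the table. All 18 hepatocyte markers had counts in every group, and their summed level ranged from 165966 to 204769.6 CPM in controls and from 74593 to 112649 CPM in mutant samples. Of these 18 markers, 10 fell at 2 months, 9 fell in tumour-free tissue and 7 fell in tumours, and none rose. Of all genes tested, 20.4%, 16.8% and 11.3% fell in these comparisons. Summed macrophage markers ranged from 389.9 to 909 CPM in controls and from 725 to 1498 CPM in mutant samples, and stellate cell markers from 264 to 448 and from 492 to 954 CPM. Summed bile duct and progenitor markers ranged from 102 to 2911 CPM in tumours and from 54.4 to 128 CPM in controls, which overlapped. They ranged from 150.0 to 627 CPM in 2-month mutants and from 95.4 to 264 CPM in tumour-free tissue. Of 9 tested in tumours against controls, 3 were called higher and none lower, where 1971 of all 14332 genes were called higher and 1622 lower. The other 6 markers, not called, had log2 changes from -1.56 (Krt19) to 4.12 (Cd24a). In whole tissue, fewer cells of a type and less RNA per cell cannot be told apart, and the part of these shifts in the enzyme changes was not tested.

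At 2 months, mutant livers had more Mat1a and Bhmt2 transcript and less Gnmt, Pemt, Ahcy, Cbs and Cth. A gene was called changed when edgeR's quasi-likelihood test gave a Benjamini-Hochberg adjusted p under 0.05 over all genes tested. Of the 9 enzymes 2 rose and 5 fell, in a comparison where 42.7% of 13773 genes were called, 22.3% higher and 20.4% lower. Their median log2 change was -0.46, against 0.01 over all genes. Scaling by library size alone moved the median of all genes to 0.29 and turned the split into 4 enzymes higher and 3 lower. Gnmt and Ahcy were not called with that scaling (adjusted p = 0.0957 and 0.208), and a fit over all 5 groups did not call Gnmt, Pemt or Ahcy (0.228, 0.178 and 0.274). Without mutant 2, 4 enzymes were called. The groups did not overlap for 1 enzyme that was higher in mutants and 4 that were lower, while 19.3% and 19.1% of all genes were apart in those directions.

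In tumour-free mutant tissue at 9 months, Bhmt2 was higher than in controls and Gnmt, Pemt, Ahcy, Cbs and Cth were lower, with no call for Mat1a, Mat2a or Bhmt. This was 1 enzyme higher and 5 lower, where 34.9% of 14352 genes were called, 18.1% higher and 16.8% lower, and the median log2 change was -0.76 against -0.01 over all genes. Groups were apart for 1 enzyme upward and 5 downward, against 25.6% and 23.6% of all genes. Scaling by library size alone moved the median of all genes to 0.42 and left Mat1a and Bhmt2 higher and Pemt lower, 2 and 1 enzymes. Leaving out control 1, control 2, control 3, tumour-free sample 2 or tumour-free sample 3 cut the calls to 3, 3, 2, 1 and 2 enzymes.

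In tumours, Mat1a, Bhmt, Ahcy, Cbs and Cth were lower than in 9-month controls and no enzyme was higher. These 5 lower calls compare with 25.1% of 14332 genes called in either direction and 11.3% called lower, and the median log2 change was -1.18 against 0.01 over all genes. The tumour levels of 7 enzymes lay below every control, as did 21.5% of all genes. With the 2 tumours of mutant 1 kept apart this held for 6 enzymes, without Mat1a. Scaling by library size alone moved the median of all genes to 0.48 and left 2 enzymes called, Ahcy and Cth, both lower. DESeq2 also called Gnmt (adjusted p = 0.00948) and Pemt (0.00067) lower. Without control 1, control 2 or control 3 each time 2 enzymes were called, and without the samples numbered 1 only 1 was. Tumours and tumour-free tissue share their 3 controls, so both sets of changes rest on the same reference samples.

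**Figure D1:**
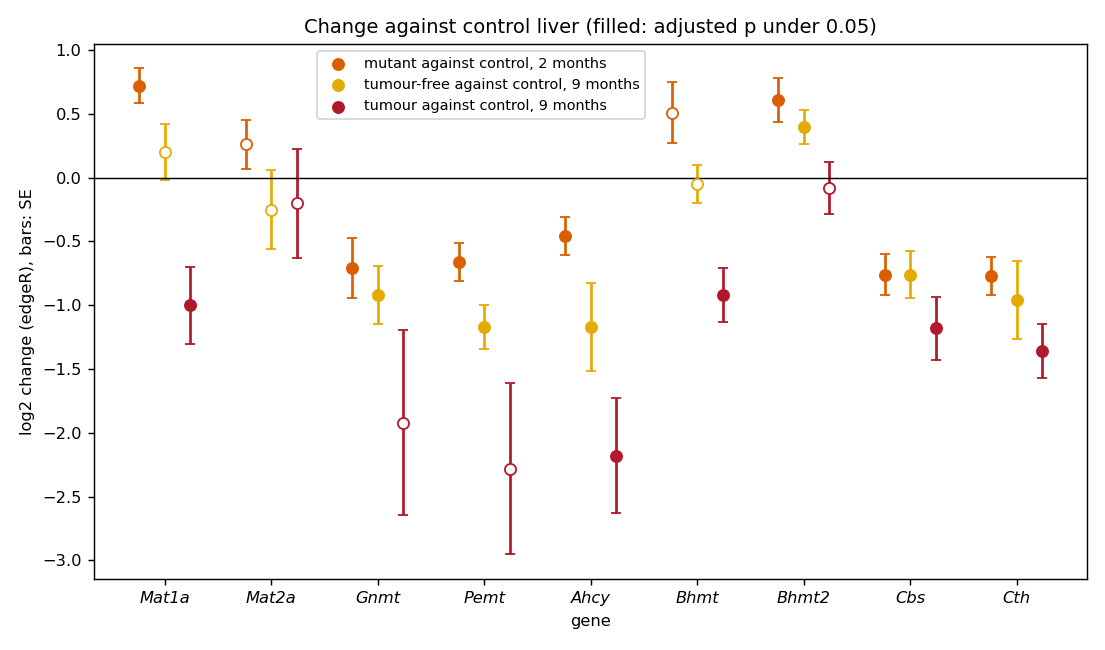
Log2 change of each enzyme (vertical axis) against control liver for 2-month mutants, tumour-free tissue and tumours, with bars showing the SE and filled points an adjusted p under 0.05. Mat1a lies at 0.72 at 2 months and at -1.00 in tumours. Gnmt, Pemt, Ahcy, Cbs and Cth lie below 0 in each comparison, and Mat2a is never filled.

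Mat1a encodes the adenosyltransferase of adult hepatocytes (chr14:41105035-41124412, plus strand, GRCm38). In 2-month controls its level ranged from 2388 to 3335 CPM with a median of 2628, and the 3 mutants had 4709, 4839 and 4099 CPM. Every mutant lay above every control, and the rise was 1.65-fold (log2 0.72 ± 0.137, SE, adjusted p = 0.00151). The 9-month controls had 4212, 2915 and 4283 CPM and the tumour-free samples 5407, 3961 and 3775 CPM, which overlapped. Tumours had 2446, 1702 and 1634 CPM, all below the lowest control with the 2 tumours of mutant 1 summed. The difference in tumour-free tissue was 0.20 (95% interval -0.30 to 0.70, adjusted p = 0.517), and tumours were 2-fold lower than controls (log2 -1.00 ± 0.303, adjusted p = 0.049). The tumour call was lost without control 1, 2 or 3 or without tumour sample 2 or 3, with adjusted p between 0.0626 and 0.179 and log2 changes from -1.17 to -0.87. The 2 tumours of mutant 1 differed from each other, at 1704 and 3120.3 CPM, and the second of these lay above control 2, at 2915 CPM. Entering them as separate libraries gave a log2 change of -0.93 (adjusted p = 0.0562).

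Mat1a was lower in the tumour than in the tumour-free sample of the same animal in all 3 mutants. Tumour over tumour-free CPM was -1.14, -1.22 and -1.21 on the log2 scale, a mean of -1.19 ± 0.04 (SD, n = 3). The first value and the small SD rest on summing the 2 tumours of mutant 1, which taken apart gave -1.67 and -0.79. In the test across genes this was -1.19 ± 0.291 (SE, adjusted p = 0.272, unadjusted p = 0.00464), which was not a call.

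Mat2a encodes the adenosyltransferase of most other tissues (chr6:72432799-72439558, minus strand). It was the least abundant enzyme per kilobase of exon in every group but the tumours. Control levels at 2 months ranged from 61.3 to 106 CPM with a median of 81.2, and the mutants had 68.5, 119 and 112 CPM. The 9-month controls had 155, 79.8 and 75.4 CPM, tumour-free tissue 110.4, 62.7 and 87.8 CPM, and tumours 144, 55.4 and 73.9 CPM. Groups overlapped at both times, and the samples numbered 1 were the highest in each 9-month group. Changes were 0.26 (95% interval -0.16 to 0.68) at 2 months, -0.25 (-0.97 to 0.46) in tumour-free tissue and -0.20 (-1.22 to 0.81) in tumours, with adjusted p of 0.299, 0.567 and 0.758. Without mutant 1 the 2-month difference was 0.46 (adjusted p = 0.0467). The direction turned without 9-month control 1, to 0.15 in tumour-free tissue and 0.19 in tumours, and without tumour sample 2, to 0.08 in tumours.

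The samples numbered 1 at 9 months stood apart in another respect. Of 20 immediate early and heat shock genes, the animal numbered 1 had the highest level for 19 among controls, 20 among tumour-free samples and 20 among tumours. The summed level of that list ranged from 411 to 5681 CPM in controls, from 443 to 1980.3 CPM in tumour-free tissue and from 514 to 2968 CPM in tumours. The genes whose pattern over the 18 samples was most like Mat2a were Chordc1 (Pearson r = 0.927), Hsph1 (0.913) and Dnaja1 (0.907), which encode a partner of the chaperone Hsp90, a large heat shock protein and a cochaperone. The part of this in the Mat2a levels was not tested.

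The Mat1a to Mat2a ratio within a library does not depend on scaling. In CPM it was 68.8, 40.5 and 36.7 in the 2-month mutants, against 23.4 to 39.7 with a median of 35.1 in controls. At 9 months the controls had 27.2, 36.5 and 56.8, tumour-free tissue 49, 63.2 and 43, and tumours 17, 30.7 and 22.1. All 3 tumours lay below all 3 tumour-free samples, while the groups overlapped in the other 4 comparisons. Across times, and so across runs, tumours also lay below the 2-month mutants and tumour-free tissue above the 2-month controls, pairs that were not tested. Mean log2 ratios were 5.67 ± 0.28 (SD, n = 3) in tumour-free tissue and 4.50 ± 0.43 in tumours. The difference of -1.18 had an exact two-sided permutation p of 0.1, the smallest that 3 against 3 allows. That test did not use the pairing of these samples by animal. The other 4 differences were 0.49 at 2 months (exact p = 0.0833, with 0.0119 the smallest possible), 0.41 in tumour-free tissue (exact p = 0.3), -0.76 in tumours against controls (exact p = 0.2) and 0.21 between control ages (exact p = 0.464). Adjusted over the 5 comparisons, none was under 0.25. Without mutant 3 the 2-month difference was 0.67 (exact p = 0.0357), and without mutant 1 it was 0.22. Without 9-month control 3 the difference between control ages was -0.08.

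**Figure D2:**
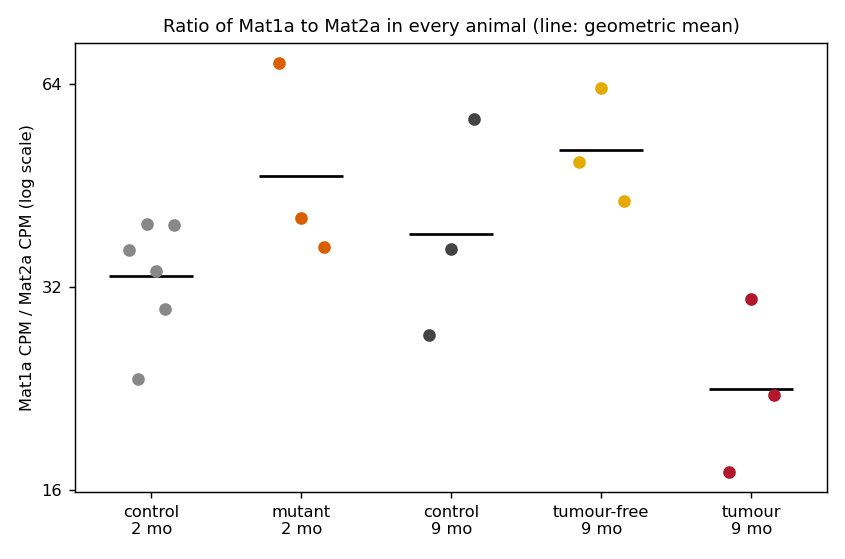
Ratio of Mat1a to Mat2a CPM in every animal on a log axis, by group, with lines at the geometric means. Tumours span 17 to 30.7 and tumour-free samples of the same animals 43 to 63.2.

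Gnmt uses S-adenosylmethionine to methylate glycine and is a main outlet for surplus methyl groups in liver (chr17:46725664-46729168, minus strand). Control levels at 2 months ranged from 1435 to 2486 CPM with a median of 1746, and the mutants had 1493, 1155 and 739 CPM. Mutant 1 fell within the control range and the other 2 lay below it, a change of -0.71 ± 0.237 (adjusted p = 0.0331). That call was lost without mutant 2 (-0.72, adjusted p = 0.08), mutant 3 (-0.48, 0.129), control 1 (-0.65, 0.0586), control 2 (-0.69, 0.0545) or control 3 (-0.62, 0.0553). At 9 months controls had 1708, 1361 and 1767 CPM, tumour-free tissue 1062, 619.9 and 879 CPM, and tumours 384, 87.4 and 826 CPM. Both mutant tissues lay below every control. Tumour-free tissue was 1.89-fold lower (log2 -0.92 ± 0.224, adjusted p = 0.0141), a call lost without control 3 (-0.86, adjusted p = 0.0568) or tumour-free sample 2 (-0.72, 0.0552). The tumours were widely spread, and their change of -1.92 ± 0.724 did not pass the test (adjusted p = 0.0972). It passed without tumour sample 2 (-1.41, adjusted p = 0.0383) or tumour sample 3 (-2.77, 0.031).

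Pemt methylates phosphatidylethanolamine to phosphatidylcholine, another large use of the methyl donor in hepatocytes (chr11:59970614-60046489, minus strand). In 2-month controls it ranged from 283 to 378 CPM with a median of 313, and the mutants had 239.7, 215 and 145 CPM. All mutants lay below all controls, a 1.58-fold fall (log2 -0.66 ± 0.151, adjusted p = 0.00462). The 9-month controls had 344, 478 and 418 CPM, the tumour-free samples 174, 175 and 203 CPM, and the tumours 125, 18.3 and 117 CPM. The 3 tissues did not overlap. Tumour-free tissue was 2.25-fold below controls (log2 -1.17 ± 0.173, adjusted p = 0.00133), a call kept under all 14 alternatives tried. Tumour 2 was far below the others, and the tumour change of -2.28 ± 0.673 just missed the threshold (adjusted p = 0.0508); without tumour sample 2 it was -1.77 (adjusted p = 0.0041).

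Gnmt and Pemt varied together. Over the 18 samples the correlation of their log2 levels was 0.94, with 0.93 within the 2-month and 0.95 within the 9-month samples. This is given as a description because samples share animals, runs and groups. Both genes had their lowest value in tumour 2, and the spread among tumours was a CV of 85.9% for Gnmt and 68.4% for Pemt. The median CV among tumours was 18% over the 6171 genes with a mean of at least 20 CPM. Cyp2d22 was the gene most like Pemt (r = 0.958) and was also among the 3 most like Gnmt (0.949).

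**Figure D3:**
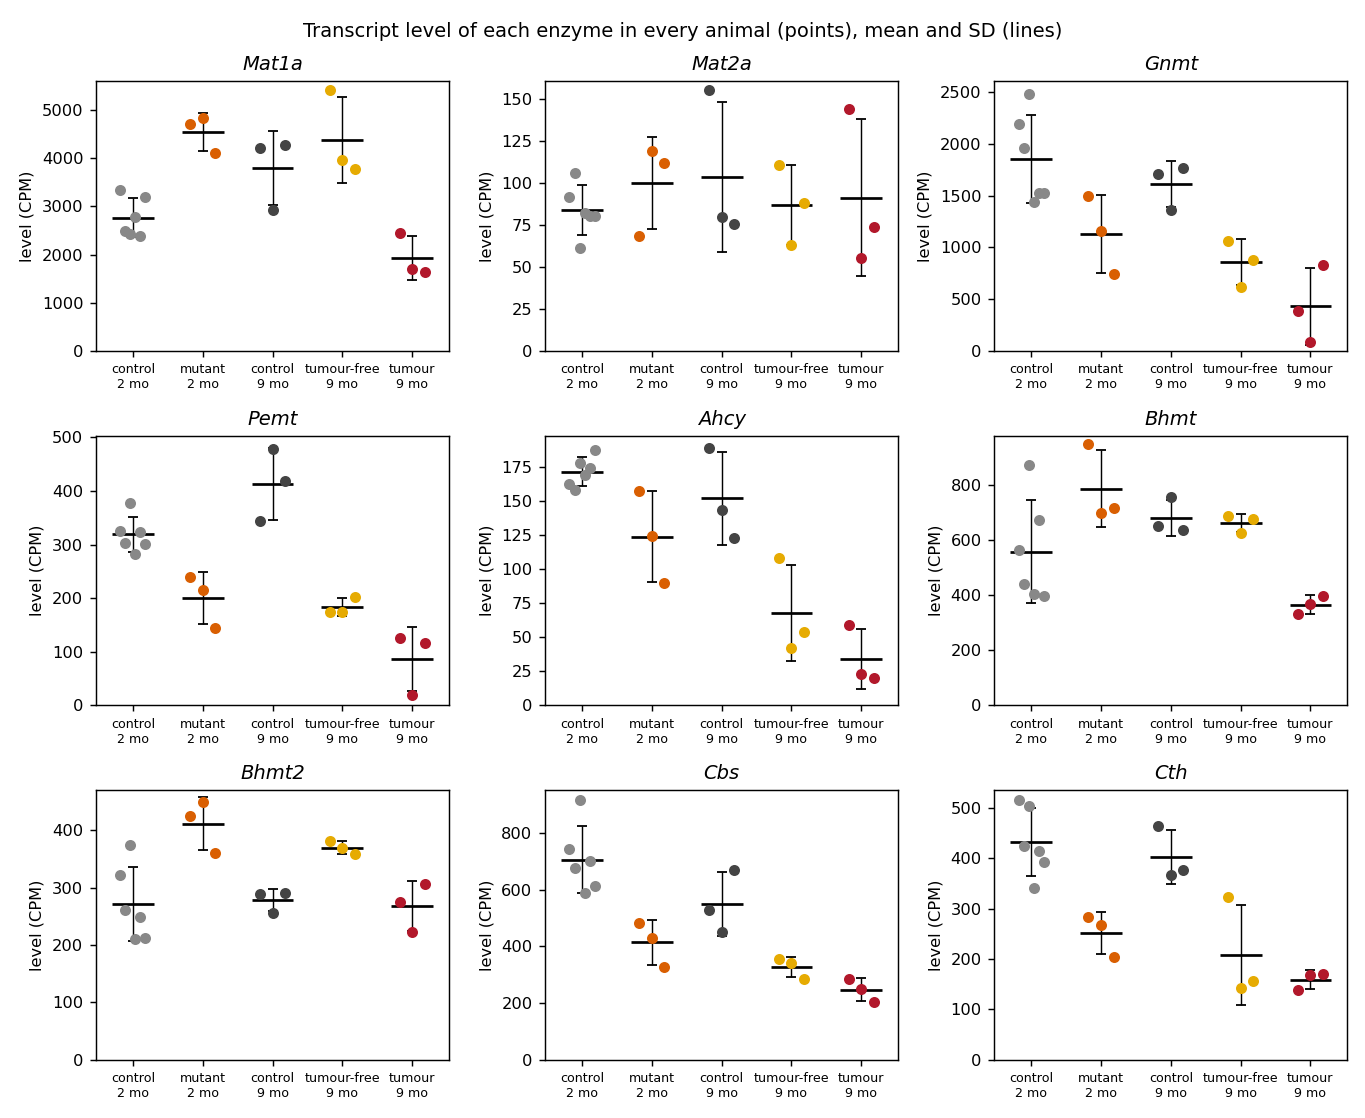
Level of each enzyme in CPM (vertical axes start at 0) in every animal, by group, with lines at the mean and bars showing the SD. Ahcy falls from 123 to 189 CPM in 9-month controls to 19.7 to 59 CPM in tumours, and Gnmt and Pemt in tumours are spread from 87.4 to 826 CPM and from 18.3 to 125 CPM.

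Ahcy is the only enzyme of the set that removes S-adenosylhomocysteine, a product that inhibits methyltransferases (chr2:155059310-155074497, minus strand). Its 2-month control levels lay close together, from 158 to 187 CPM with a median of 172, and the mutants had 157, 124 and 90 CPM. The mutants lay below the controls, mutant 1 only just, and the change was -0.46 ± 0.148 (adjusted p = 0.0267). The call was lost without mutant 2 (-0.47, adjusted p = 0.0695) or mutant 3 (-0.28, 0.0897). At 9 months controls had 189, 143 and 123 CPM, tumour-free tissue 108, 42.1 and 53.4 CPM, and tumours 59, 23 and 19.7 CPM. Neither mutant tissue reached the lowest control. Tumour-free tissue was 2.25-fold lower (log2 -1.17 ± 0.343, adjusted p = 0.0309) and tumours 4.54-fold lower (log2 -2.18 ± 0.45, adjusted p = 0.0155). The first of these calls was lost without control 1 (-0.99, adjusted p = 0.0897), control 2 (-1.21, 0.09), tumour-free sample 2 (-0.90, 0.0974) or tumour-free sample 3 (-1.00, 0.113). The second was lost without control 1 (-2.01, adjusted p = 0.0564) or control 2 (-2.23, 0.0501).

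A gene named Gm4737 has a transcript 99.7% identical to Ahcy over 2086 bases, so the counting could split reads between them. It had 1.27 to 2.22 CPM in 2-month controls and 3.99, 26.4 and 33.5 CPM in 9-month controls, where Ahcy had 189, 143 and 123 CPM. Its own difference between control ages was 3.73 ± 0.514 (adjusted p = 0.00201). With its counts added to Ahcy, the Ahcy changes were -0.46 at 2 months, -1.25 in tumour-free tissue and -2.26 in tumours, with adjusted p of 0.027, 0.0112 and 0.00717. The 3 genes whose pattern was most like Ahcy were Glul (r = 0.972), Slc1a2 (0.970) and Pxmp2 (0.965) which encode glutamine synthetase, a glutamate carrier and a peroxisomal membrane protein.

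Ahcy and Cbs were the enzymes with a searched motif in the RefSeq (GRCm38.p6) bases upstream of their starts. Both fell in all 3 mutant comparisons, as did Cth, which had no entry to search. Gnmt and Pemt, where no motif was found, fell at 2 months and in tumour-free tissue. The sequences are shown 5′ to 3′ on the minus strand, the 250 bases before the start, with motif letters in capitals: TGATTCA, a match to the AP-1 motif TGANTCA, for Ahcy (chr2:155074498-155074747) and CACGTG, the E-box that Myc can bind, for Cbs (chr17:31637206-31637455).
Ahcy: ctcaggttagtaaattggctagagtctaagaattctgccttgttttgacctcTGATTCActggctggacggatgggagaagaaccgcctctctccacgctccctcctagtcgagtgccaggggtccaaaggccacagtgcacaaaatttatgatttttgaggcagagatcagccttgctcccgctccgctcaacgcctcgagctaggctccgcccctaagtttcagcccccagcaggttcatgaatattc
Cbs: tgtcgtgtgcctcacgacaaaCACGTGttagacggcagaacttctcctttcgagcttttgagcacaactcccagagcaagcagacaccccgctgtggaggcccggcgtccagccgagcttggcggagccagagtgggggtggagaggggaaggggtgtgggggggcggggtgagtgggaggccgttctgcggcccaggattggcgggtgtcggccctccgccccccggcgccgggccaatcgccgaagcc
Both strands were searched for TGANTCA, for TGACGTCA, the cyclic AMP response motif, and for CACGTG; the first and the second begin with TGA and end with TCA, and the second and CACGTG share ACGT. Of 32851 promoter windows of the same length, 6.75% held TGANTCA, 1.55% TGACGTCA and 6.02% CACGTG. The windows of Mat2a, Gnmt, Bhmt, Bhmt2 and Pemt held none of the 3, and Mat1a and Cth had no entry. A match describes letters and is not a measured binding site.

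Cbs condenses homocysteine with serine and commits it to cysteine (chr17:31608894-31637238, minus strand). Control levels at 2 months ranged from 588 to 916 CPM with a median of 688, and the mutants had 483, 431 and 328 CPM. All mutants lay below all controls, a 1.69-fold fall (log2 -0.76 ± 0.16, adjusted p = 0.00283) that was called under all 16 alternatives. The 9-month controls had 528, 450.4 and 669.6 CPM, tumour-free tissue 354, 339.6 and 286 CPM, and tumours 285, 249 and 204 CPM. In each mutant the tumour lay below the tumour-free sample, though only by -0.02 on the log2 scale in the second tumour of mutant 1 taken alone, and no mutant sample reached a control. Tumour-free tissue was again 1.69-fold lower (log2 -0.76 ± 0.185, adjusted p = 0.0144) and tumours 2.27-fold lower (log2 -1.18 ± 0.247, adjusted p = 0.0146). In tumour-free tissue the call was lost without control 3 (-0.60, adjusted p = 0.0608), tumour-free sample 2 (-0.76, 0.0585) or tumour-free sample 3 (-0.65, 0.0625). In tumours it was lost without control 3 (-1.03, adjusted p = 0.073).

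Cth splits cystathionine, the product of Cbs, to release cysteine (chr3:157894248-157925077, minus strand). It ranged from 341 to 515 CPM in 2-month controls with a median of 419, and the mutants had 283, 267 and 204 CPM. Mutants were again all below controls, by 1.71-fold (log2 -0.77 ± 0.152, adjusted p = 0.0019), and the call was made under all 16 alternatives. At 9 months controls had 464, 366 and 376 CPM, tumour-free tissue 322, 143 and 157 CPM, and tumours 138, 169 and 170.1 CPM. Tumour-free sample 1 stood well above the other 2 and still below every control. The changes were -0.96 ± 0.306 in tumour-free tissue (adjusted p = 0.0414) and -1.36 ± 0.21 in tumours (adjusted p = 0.00519). The first call was lost without control 1, 2 or 3 or tumour-free sample 2 or 3, at log2 changes from -1.02 to -0.73 and adjusted p from 0.0721 to 0.147.

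Cbs and Cth, consecutive steps of one route, varied together, with a correlation of 0.90 over the 18 samples, 0.98 within the 2-month and 0.81 within the 9-month samples. Mat1a went with Cbs at 0.69 within the 9-month samples and at -0.78 within the 2-month samples, where the mutants were high in one and low in the other. The genes most like Cbs were Sdr42e1 (r = 0.968), Clcc1 (0.965) and Nars2 (0.965), and those most like Cth were Mrpl32 (0.953), Lactb (0.944) and Ptprd (0.944).

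Bhmt uses betaine to turn homocysteine back into methionine (chr13:93616675-93637961, minus strand). In 2-month controls it ranged from 398 to 873 CPM with a median of 504, and the mutants had 950.4, 699 and 716 CPM. Only control 3, the highest, reached the mutant range, and the change of 0.51 ± 0.238 did not pass the test (adjusted p = 0.11); without control 3 it was 0.67 (adjusted p = 0.0188). The 9-month controls had 652, 757 and 638 CPM, tumour-free tissue 688, 625 and 678 CPM, and tumours 332, 368 and 399 CPM. Tumour-free tissue overlapped the controls, with a difference of -0.05 (95% interval -0.39 to 0.30, adjusted p = 0.836), and every tumour lay far below both. Tumours were 1.89-fold below controls (log2 -0.92 ± 0.215, adjusted p = 0.0214). That call was lost without control 1, 2 or 3 or tumour sample 1, at log2 changes from -0.98 to -0.82 and adjusted p from 0.0581 to 0.0828.

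Bhmt2, a neighbour of Bhmt on chromosome 13, uses S-methylmethionine as donor (chr13:93655720-93674302, minus strand). Control levels at 2 months ranged from 209.9 to 374 CPM with a median of 255, and the mutants had 425, 449 and 359.8 CPM. Control 3 lay above mutant 3, and the rise was 1.53-fold (log2 0.61 ± 0.173, adjusted p = 0.0154), not called without mutant 2 (0.54, adjusted p = 0.063). At 9 months controls had 289, 256 and 289.8 CPM, tumour-free tissue 381, 369 and 359 CPM, and tumours 274, 222 and 307 CPM. Tumour-free tissue lay above controls by 1.32-fold (log2 0.40 ± 0.133, adjusted p = 0.0467), while tumours overlapped controls (-0.08, 95% interval -0.56 to 0.40, adjusted p = 0.809). The tumour-free call was lost when any 1 of the 6 animals was left out (log2 0.35 to 0.45, adjusted p from 0.0866 to 0.133) and in 11 of 14 alternatives overall.

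The Bhmt and Bhmt2 promoter windows are shown because the genes are neighbours and only Bhmt was called lower in tumours; the difference between the 2 genes was not tested. Each is the 250 bases before the start on the minus strand, from RefSeq (GRCm38.p6), at chr13:93637759-93638008 and chr13:93674303-93674552, with no searched motif and so no capitals.
Bhmt: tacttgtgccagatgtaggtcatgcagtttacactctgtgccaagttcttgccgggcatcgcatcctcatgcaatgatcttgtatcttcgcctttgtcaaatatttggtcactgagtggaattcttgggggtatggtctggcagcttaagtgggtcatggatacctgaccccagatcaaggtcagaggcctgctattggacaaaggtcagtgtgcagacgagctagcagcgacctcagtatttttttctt
Bhmt2: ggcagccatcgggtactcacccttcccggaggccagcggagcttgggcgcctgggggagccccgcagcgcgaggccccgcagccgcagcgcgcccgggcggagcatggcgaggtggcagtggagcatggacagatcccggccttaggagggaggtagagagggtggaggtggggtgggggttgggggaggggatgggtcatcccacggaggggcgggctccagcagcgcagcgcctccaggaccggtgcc
Their transcripts aligned over only 478 bases, with 67.2% identity there, whereas the pseudogene Bhmt-ps1 was 99.4% identical to Bhmt over 477 bases and had 0.113 to 0.694 CPM. The Bhmt and Bhmt2 levels correlated at 0.69 over the 18 samples, 0.85 at 2 months and 0.48 at 9 months. Gm5096 (r = 0.889), Hoga1 (0.820) and Selenbp1 (0.796) were most like Bhmt, and Dock8 (0.909), Ppp1r7 (0.893) and Slc23a1 (0.885) most like Bhmt2. An antisense gene, Gm15622, shares 187 exon bases with Bhmt and had 131 counts over all libraries, and Particl, opposite Mat2a, shares 508 and had 482.

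Tumours were also compared with the tumour-free tissue of the same 3 animals, which share a source. No enzyme was called, in a comparison where 0.0137% of 14566 genes, 2 in all, were. At an unadjusted p under 0.05 there were 3 enzymes, Mat1a, Bhmt and Bhmt2, all lower in tumours, against 9.98% of all genes in either direction and 4.43% lower. With the animal as a block 1 gene and no enzyme was called, and DESeq2 called 442 genes with 2 enzymes, Mat1a (adjusted p = 0.00121) and Bhmt (5.43e-05), both lower. The tumour was the lower sample in all 3 animals for 7 enzymes, as for 16.8% of all genes. The groups were apart for 5 enzymes, against 7.71% of all genes apart downward, and for 4, without Cbs, when the tumours of mutant 1 were kept apart.

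Within animals the tumour differences took several forms, with the 2 tumours of animal 1 summed. Bhmt was at -1.05, -0.76 and -0.77 on the log2 scale, and Cbs nearer 0, at -0.31, -0.45 and -0.49. The single tumours of animal 1 gave -1.25 and -0.89 for Bhmt and -0.72 and -0.02 for Cbs. Gnmt was -1.47, -2.83 and -0.09 and Pemt -0.48, -3.25 and -0.80, so that animal 2 had the largest difference for both. Ahcy was -0.86, -0.87 and -1.43. Cth was -1.22 in animal 1 and slightly positive in the others, at 0.24 and 0.12, and Mat2a was positive only in animal 1.

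**Figure D4:**
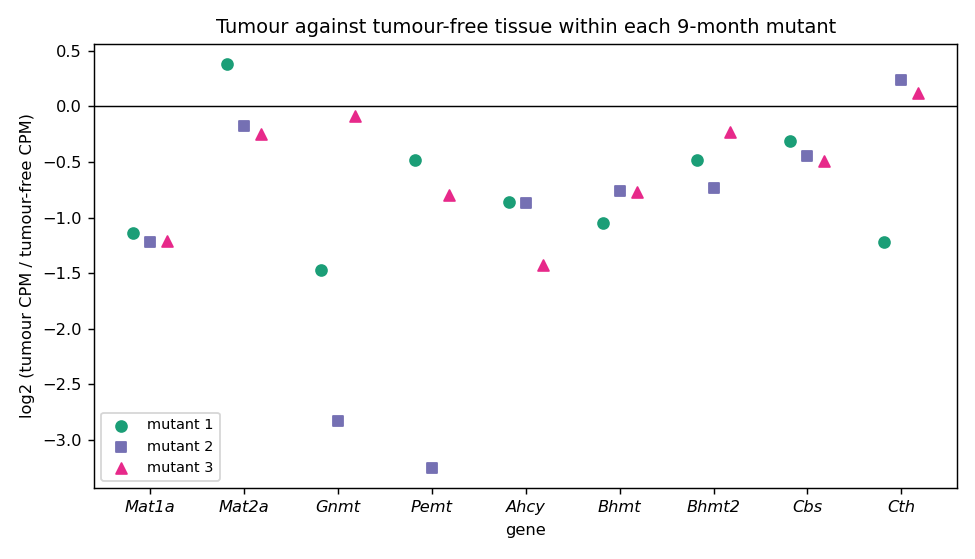
Log2 of tumour over tumour-free CPM (vertical axis) for each enzyme in each 9-month mutant, with symbols marking the animals. The 2 tumours of animal 1 are summed. The 3 Mat1a points lie between -1.22 and -1.14, whereas Pemt spans -3.25 to -0.48.

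The order of the enzymes per kilobase of exon differed between groups. In 2-month controls Gnmt was highest at 1538 ± 354 CPM per kilobase (SD, n = 6) and Mat1a next at 798 ± 118. In the mutants Mat1a was first at 1312 ± 114 (SD, n = 3), and Gnmt next at 936 ± 313, with spreads that overlapped. The same 2 genes were 1337 ± 182 and 1097 ± 222 in 9-month controls, where they overlapped within their spread, with Gnmt first. Mat1a led in tumour-free tissue, at 1263 ± 258 against 708 ± 184, and in tumours, at 556 ± 129.8 against 359 ± 308, where the spreads overlapped. Below them Cth, Pemt, Bhmt2, Bhmt and Cbs lay between 94.3 and 155 CPM per kilobase in 2-month controls. Cth at 155 ± 24 did not differ from Pemt at 152 ± 15.6 beyond their spread, nor did Bhmt2, Bhmt and Cbs from one another. Ahcy followed at 61.1 ± 3.85 and Mat2a was last at 18.7 ± 3.3, and in tumours these neighbours were at 12.1 ± 7.77 and 20.3 ± 10.4. Together the 9 genes took 0.627% ± 0.0623 of raw counts, without TMM factors, in 2-month controls and 0.844% ± 0.0666 in mutants. They took 0.685% ± 0.0707 in 9-month controls, 0.822% ± 0.111 in tumour-free tissue and 0.419% ± 0.0755 in tumours. These shares are not scaled, and TMM factors were 0.828 to 0.902 in controls and 1.01 to 1.21 in mutant samples. The shares therefore need not follow the CPM levels, and Mat1a had the largest mean CPM of the 9 in every group.

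Control livers at the 2 ages differed in no enzyme by the test, where 11.9% of 13545 genes were called. The smallest adjusted p were 0.0785 for Pemt (0.36 ± 0.123) and 0.0859 for Mat1a (0.44 ± 0.156). Without 9-month control 1, Pemt (0.48, adjusted p = 0.0263) and Ahcy (-0.38, 0.0485) were called, and without control 2, Mat1a (0.60, 0.0349). With all animals the Ahcy difference was -0.19 (adjusted p = 0.368), and -0.01 (0.944) with the Gm4737 counts added. Gm4737 was at 3.99 CPM in 9-month control 1 and at 26.4 and 33.5 CPM in controls 2 and 3. The change of the mutant effect between 2 months and 9-month tumour-free tissue was called for no enzyme, against 1.52% of 14707 genes. Its smallest adjusted p among the enzymes was 0.373, for Pemt (-0.50 ± 0.227). Intervals were wide: that of Ahcy ran from -1.46 to 0.07 around -0.70, and that of Mat1a from -1.04 to 0.01 around -0.52. Without tumour-free sample 1 the Ahcy value was -1.17 (adjusted p = 0.04).

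Genes that feed or drain the cycle were read from 8 lists; where 2 log2 changes follow a name below, the first is at 2 months and the second in tumour-free tissue. Of 5 partners of the adenosyltransferases and of Ahcy, 2 fell at 2 months (median 0.03) and 1 fell in tumour-free tissue (median -0.25). Adk, which clears the adenosine that Ahcy releases, fell at 2 months (-0.57, adjusted p = 0.002), in tumour-free tissue (-0.93, 0.00258) and in tumours (-1.43, 0.0067). Ahcyl1 fell at 2 months (-0.32, adjusted p = 0.00773) and was not called in tumour-free tissue (-0.37, 0.0893). The 2-month values of Mat2b, the regulatory subunit of the Mat2a enzyme, of Ahcyl2 and of Mettl16, which methylates Mat2a messenger RNA, were 0.05, 0.09 and 0.03, none called.

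Of the folate and one-carbon enzymes, 2 of 17 tested rose and 3 fell at 2 months (median -0.10), and 2 of 18 rose and 5 fell in tumour-free tissue (median -0.18). Those that rose at 2 months were mitochondrial: Mthfd2 (2.03 ± 0.313, adjusted p = 0.000378) and Mthfd1l (2.25 ± 0.344, 0.000357). Mthfd2 was also higher in tumour-free tissue (1.86 ± 0.249) and in tumours (2.89 ± 0.281, adjusted p = 0.00114). Mthfd1l was not called in tumour-free tissue (0.68 ± 0.38, adjusted p = 0.202) and was higher in tumours (2.36 ± 0.66, 0.0437). The cytosolic Ftcd (-1.42 ± 0.145) and Shmt1 (-1.02 ± 0.199) fell at 2 months, and their tumour-free changes of -1.68 and -1.19 were called too. Of the choline oxidation and glycine cleavage genes, 1 of 12 rose and 5 fell at 2 months (median -0.23), and 5 of 12 fell and none rose in tumour-free tissue (median -0.35). Among them Amt, of the glycine cleavage system, changed by -1.37 ± 0.258 at 2 months and -1.70 ± 0.141 in tumour-free tissue. Dmgdh, which acts on the dimethylglycine that Bhmt makes, rose at 2 months (0.58 ± 0.141, adjusted p = 0.00657).

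Cysteine use gave 2 of 14 genes higher and 5 lower at both times (medians -0.20 at 2 months and -0.07 in tumour-free tissue). Gss, the last step of glutathione synthesis, rose (0.97 ± 0.103 and 1.26 ± 0.147). Cdo1, which oxidises cysteine (-1.41 and -1.62), Suox, which oxidises sulfite (-1.34 and -2.43), and Mpst, which takes sulfur from a cysteine product (-0.70 and -1.16), fell. The phospholipid genes include the alternative route to Pemt's product and other steps. Of them 3 of 12 rose and 5 fell at 2 months (median -0.21), and 4 rose and 5 fell in tumour-free tissue (median -0.30). Chpt1, the last step of that route (-1.27 and -3.26), and Cept1 (-0.88 and -1.03) fell, and Ptdss2, which makes phosphatidylserine (1.55 and 1.68), rose.

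Other methyltransferases counted 2 of 17 higher and 6 lower at 2 months (median -0.07), and 3 higher and 8 lower in tumour-free tissue (median 0.03). The maintenance DNA methyltransferase Dnmt1 rose (0.88 ± 0.118 and 1.40 ± 0.17), while Inmt, which methylates indoles (-1.64 and -3.13), and Hnmt, which methylates histamine (-1.00 and -1.94), fell. Of 12 amino acid carriers 6 rose and 4 fell at 2 months (median 0.22), and of 13 tested in tumour-free tissue 6 rose and 4 fell (median 0.78). Slc1a4 (1.93 ± 0.281 and 2.75 ± 0.273), Slc43a2 (1.83 ± 0.235 and 1.96 ± 0.265) and Slc7a5 (1.11 ± 0.236 and 1.37 ± 0.184), carriers of neutral amino acids, rose. Slc3a1, a subunit of a cystine carrier, fell (-2.66 ± 0.253 and -2.20 ± 0.277), as did Slc38a3, a glutamine carrier of hepatocytes (-0.97 and -1.87). Polyamine and methionine salvage gave 4 of 15 higher and 4 lower at 2 months (median 0.09), and 3 higher and 5 lower in tumour-free tissue (median -0.24). Smox (1.38 and 1.83) and Sms (1.12 and 1.26) rose, and Paox (-1.31 and -1.63) and Oaz1 (-0.84 and -0.68) fell. No list held a called gene between tumours and tumour-free tissue. Over all genes the medians were 0.01 at 2 months and -0.01 in tumour-free tissue, and the shares called were those given above.

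**Figure D5:**
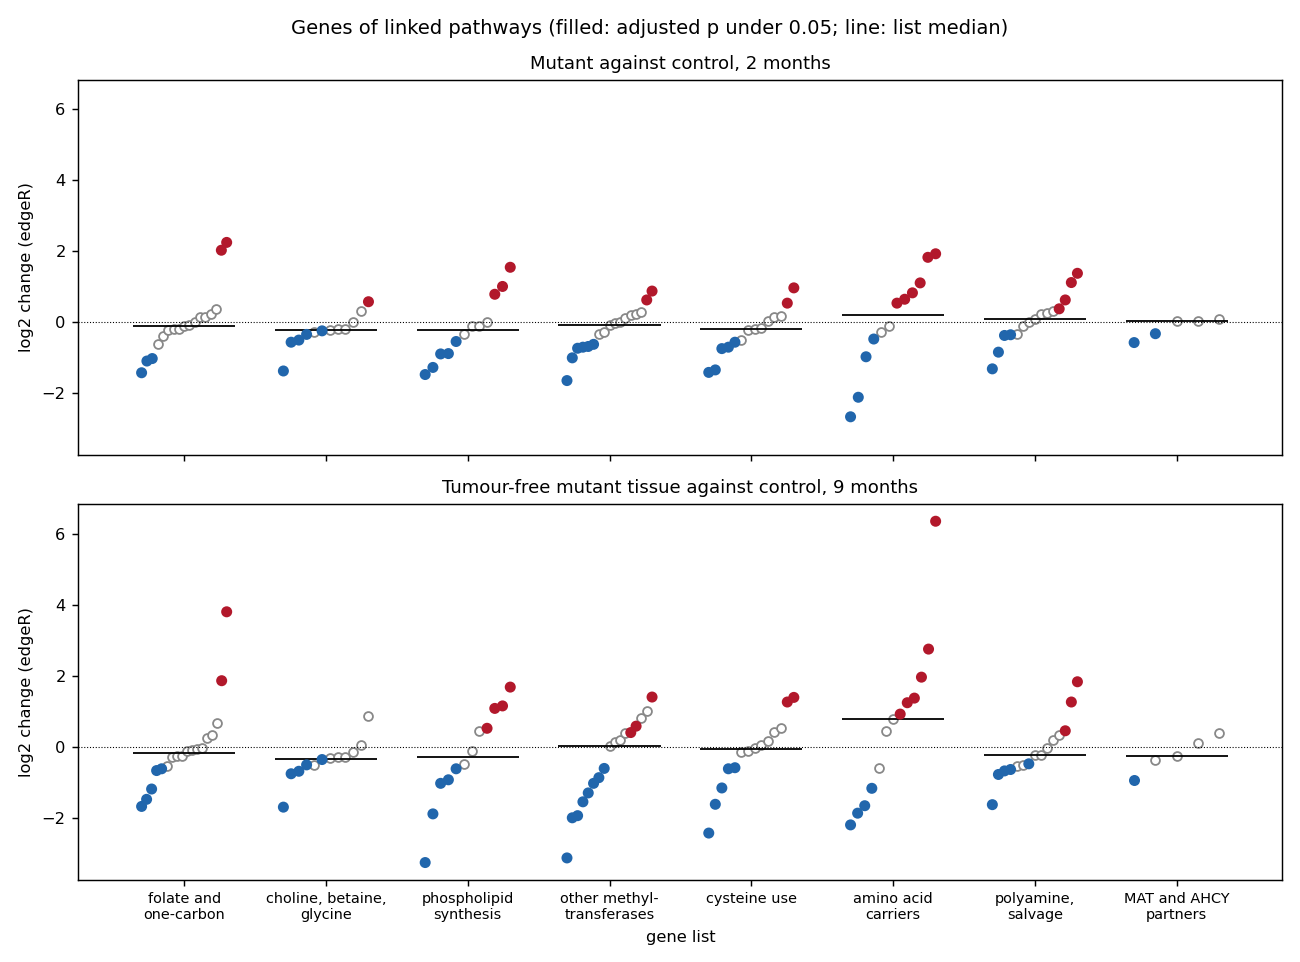
Log2 change of each tested gene of the 8 linked lists (points, filled where adjusted p is under 0.05, red higher and blue lower) at 2 months and in 9-month tumour-free tissue, with lines at the list medians. The carriers have the highest medians, 0.22 and 0.78, and the choline and glycine list the lowest, -0.23 and -0.35.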

How the data were processed

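The deposited values are raw gene counts, whole numbers per gene and library, and the authors made them before deposit. Per the submitters' processing notes DESeq2 1.22.2, bedtools 2.27.1, RSEM and STAR 2.6.1a were used with GRCm38/mm10; their roles and order, and the annotation, are not given there. If the counts are rounded RSEM estimates, reads shared by similar genes were divided by a model.

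The 9 genes and the linked lists were chosen with earlier results of these data known. Every comparison had its own fit over all genes, with only the groups compared, in edgeR 4.0.16 (R 4.3.3): filterByExpr, TMM, robust quasi-likelihood test, Benjamini-Hochberg adjustment, threshold 0.05. The 2 tumours of mutant 1 were summed. Levels are CPM over all libraries. The ratio used a pseudocount of 0.1 CPM and an exact two-sided permutation test. Likeness is Pearson's r of log2(CPM + 1) over 18 samples, among 9944 protein-coding genes with a mean of at least 5 CPM, and names come from the 3 highest. From each linked list the text could name up to 4 genes with the smallest adjusted p in the 2-month and in the tumour-free comparison, and all genes of a list of at most 6; some genes that these rules pick are not reported here. Gene positions and exon lengths are GENCODE M21, to which 54587 of 55421 IDs matched by version. The gene test was checked on simulated counts. Libraries of 14294611 to 22062341 counts were used, and n is the number of animals, which the labels name separately.

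Tumour and tumour-free samples with one number come from one animal, per the labels; same-animal deviations correlated at 0.046 to 0.317 and different-animal deviations at -0.252 to 0.0189. Alternatives were DESeq2 1.42.0, limma 3.58.1 voom, other scalings, no filter, 1 fit over all groups, blocks, separate tumours of mutant 1 and leaving out animals. Adding Gm4737 counts to Ahcy was chosen after seeing the data.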

Additional observations from a re-analysis of the deposited data

How the results depend on the processing

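Log2 changes of the 9 enzymes in the 6 comparisons were first counted under settings other than leaving out 1 animal at a time. Of these, 389 kept their direction and their side of the threshold, 30 lost a call, 15 gained one and 13 changed sign. These settings include adding Gm4737 counts to Ahcy and leaving out all 9-month samples numbered 1. Between control ages the latter is the same as leaving out 9-month control 1. The 2-month calls of Mat1a, Cbs and Cth and the tumour-free call of Pemt held under every alternative run. Members called at 2 months, 7 in the report, were 4 in 1 fit over all 5 groups and 4 with the replicate block, which called 3290 genes in place of 5883. In tumour-free tissue library size alone called 3 members in place of 6. In tumours against controls, 3593 genes and 5 members became 5482 and 2 with library size alone, 6612 genes in 1 fit over all groups, 3 members with the replicate block, and 1743 genes and 1 member without the 9-month samples numbered 1. For genes higher and lower, library size alone gave 5445 and 1562 at 2 months in place of 3067 and 2816, 5706 and 1178 in tumour-free tissue in place of 2599 and 2410, and 4664 and 818 in tumours in place of 1971 and 1622. Between tumours and tumour-free tissue, 2 genes became 442 with DESeq2 (2 members), 380 in 1 fit (1 member), 47 without a filter, 1 with the animal as a replicate block, and 0 with limma voom or without samples numbered 1. Between control ages, 1616 genes became 1056 in 1 fit and 384 with the replicate block, and 0 members became 1 with DESeq2 and 2 without the samples numbered 1. The time change of the mutant effect, 223 genes, became 534 with DESeq2, 54 in 1 fit and 54 with the replicate block.

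Leaving out 1 animal at a time gave 4324 to 5832 genes and 4 to 8 members at 2 months, 3351 to 4870 and 1 to 5 in tumour-free tissue, 1419 to 3566 and 2 to 6 in tumours, 0 to 63 (without tumour sample 1) and 0 between tumours and tumour-free tissue, 797 to 1899 and 0 to 2 between control ages, and 110 to 293 and 0 to 1 for the time change. The Mat1a to Mat2a differences then ranged from 0.22 to 0.67, 0.16 to 0.70, -1.01 to -0.48, -1.40 to -0.97 and -0.08 to 0.46.

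Sign changes were among values that were not called in the report. These ran from -0.39 (Cth, tumours against tumour-free tissue) to 0.29 (Mat2a, between control ages). With library size alone the changed values were Mat2a 0.18 and Bhmt 0.39 in tumour-free tissue, and Mat2a 0.27 and Bhmt2 0.38 in tumours. Between tumours and tumour-free tissue Mat2a was -0.07 with voom, -0.02 with the animal block and -0.23 without samples numbered 1, where Cth was 0.17. Between control ages Bhmt2 was -0.19 with the block and Mat2a -0.12 without samples numbered 1. For the time change Gnmt was 0.07 and Bhmt2 0.03 with the block, and Cbs -0.03 without samples numbered 1. Leaving out 1 animal gave ranges of -0.45 to 0.15 (Mat2a) and -0.10 to 0.04 (Bhmt) in tumour-free tissue, -0.67 to 0.19 (Mat2a) and -0.16 to 0.06 (Bhmt2) in tumours, -0.44 to 0.32 (Mat2a) and -0.61 to 0.07 (Cth) between tumours and tumour-free tissue, -0.12 to 0.48 (Mat2a) and -0.03 to 0.13 (Bhmt2) between control ages, and -0.40 to 0.09 (Gnmt), -0.11 to 0.18 (Cbs) and -0.61 to 0.06 (Cth) for the time change. The median correlation over pairs of members, 0.38 over 18 samples, was -0.19 within the 2-month and 0.65 within the 9-month samples. The cause of these shifts was not tested.

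Outside the tumour pairs the samples share only a number: same-number deviations correlated at -0.327 to 0.347 at 2 months, -0.146 to 0.462 in tumour-free tissue, -0.0675 to 0.193 in tumours and -0.168 to 0.188 between control ages, and in none of these did every sample correlate best with its own number. Each arm but the 2-month controls held 3 animals.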
